A study of Mus musculus with 11 samples.

Results

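The genes described here carry out the uptake, storage, release and sensing of iron in the cell. They are the transferrin receptor gene Tfrc, the endosomal ferrireductase gene Steap3, the iron carrier gene Slc11a2, the ferritin genes Fth1 and Ftl1, the ferritin cargo receptor gene Ncoa4, the iron exporter gene Slc40a1 and the iron regulatory protein genes Ireb2 and Aco1. They were chosen by name, 9 of 55416 gene identifiers in the deposited table, and all 9 passed the filter of a mean normalized count of at least 10 that left 12909 genes for testing. Polyadenylated RNA was sequenced from EC4, a single mouse liver cancer cell line, in 11 libraries. The groups were MYC high 10 µM cells methionine (3 libraries), MYC high 200 µM cells (2 libraries, numbered 2 and 3), MYC low 10 µM cells (3 libraries) and MYC low 200 µM cells (3 libraries). MYC high cells carry the genotype label "MYC on" and MYC low cells the label for the off state. How MYC is switched is not given in the sources used here. All cells were grown in DMEM with 200 µM methionine and then kept for 24 h in DMEM with either concentration, so both media share the same starting medium. The values used here held no MYC high 200 µM library numbered 1.

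Iron reaches most cells bound to transferrin, which the transferrin receptor carries into endosomes, where a STEAP reductase reduces it and SLC11A2 moves it into the cytosol. Ferritin, a shell of heavy and light chains, stores what is not used, NCOA4 takes ferritin to lysosomes to free its iron, and ferroportin, the product of Slc40a1, is the known exporter of iron from cells. Iron regulatory proteins 1 and 2, from Aco1 and Ireb2, bind RNA hairpins called iron-responsive elements when iron is scarce. Such binding in a 5′ untranslated region blocks translation, and binding in the 3′ untranslated region of the Tfrc transcript slows its decay. The liver is a main iron store of the body, and MYC has been reported to raise transferrin receptor expression.

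Matches to the iron-responsive hairpin are shown first. They divide the genes that hold one into those with elements before and those with elements after the coding sequence. A search of the annotated mouse transcripts for a CAGTGN loop between 5 paired bases on either side (G–T pairs allowed), with a C directly before the upper stem, found such an element in 4 of the 9 genes. Capitals mark the 6 loop bases, and T stands for U. The Tfrc transcript held 4 matches to this rule, all in its 3′ untranslated region.
Tfrc element 1: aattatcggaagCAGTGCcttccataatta
Tfrc element 2: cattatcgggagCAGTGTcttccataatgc
Tfrc element 3: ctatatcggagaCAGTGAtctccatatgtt
Tfrc element 4: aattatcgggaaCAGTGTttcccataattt
Fth1 element: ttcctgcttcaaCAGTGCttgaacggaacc
Ftl1 element: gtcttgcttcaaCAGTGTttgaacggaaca
Slc40a1 element: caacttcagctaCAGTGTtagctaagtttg

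The Fth1, Ftl1 and Slc40a1 elements lay in 5′ untranslated regions, with loops beginning at base 99, base 90 and base 102 of the transcript. In Tfrc the loops began at bases 3327, 3706, 3771 and 3818 of a transcript of 4890 bases whose coding part ended at base 2429. Among 21866 protein-coding genes searched in the same way, 159 (0.727%) had a match in an untranslated region, 31 (0.142%) of them with a match before and 128 (0.585%) with a match after the coding part. No match in the other 5 genes says only that these letters were not found in the annotated transcripts. Whether regulatory proteins bound any element was not measured in these libraries.

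**Figure D1:**
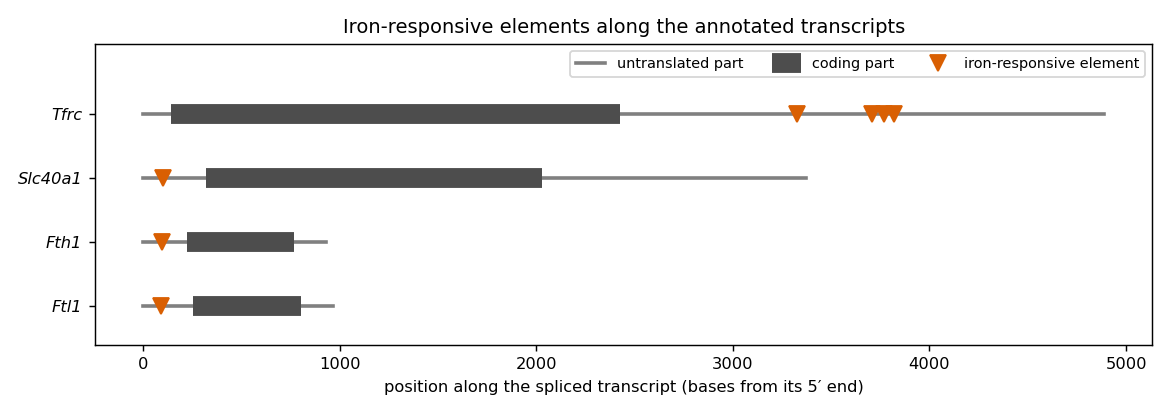
Iron-responsive elements along the annotated transcripts of Tfrc, Slc40a1, Fth1 and Ftl1; the x axis gives the position in bases from the 5′ end of the spliced transcript, boxes mark coding parts, lines untranslated parts and triangles the elements. The loops of the 4 Tfrc elements begin between bases 3327 and 3818, after the coding part, and each of the other transcripts has 1 element before it, with a loop that begins between bases 90 and 102.

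Reads on genes numbered 10858936 to 13085689 per library, and 3 reads, the upper limit for a gene with 0 reads, equal 2.65 to 3.43 normalized counts. Separate cultures are not named in the labels, so a p-value here reflects the scatter of these libraries, which may be technical. The pooled fit takes the pair of MYC high 200 µM libraries to scatter as the other groups do. In whole-culture RNA, fewer cells of a type and less RNA per cell cannot be told apart. Myc itself averaged 336 normalized counts in MYC high and 336 in MYC low 10 µM cells (adjusted p = 0.949, limma), against 2089 in MYC high and 1136 in MYC low 200 µM cells. Directions between the MYC states at 10 µM therefore rest on the labels. Of the hepatocyte markers, Alb had 0 reads and Ttr, Apoa1 and Hnf4a had 1 to 3 reads over all libraries, while the keratin genes Krt8 and Krt18 had 93022 and 60297 reads.

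Per kilobase of the longest coding transcript, both ferritin chains stood far above the other 7 genes in every group, and the groups reordered only the genes beneath them. In normalized counts per kb, Ftl1 averaged 70384 ± 3533 in MYC high 10 µM cells (SD, n = 3), 52951 ± 178 in MYC high 200 µM cells (n = 2), 61924 ± 596 in MYC low 10 µM cells (n = 3) and 65812 ± 147 in MYC low 200 µM cells (n = 3). Fth1 followed with 15210 ± 664, 7217 ± 50.4, 11844 ± 113 and 9921 ± 143 per kb in the same order of groups. Tfrc came next in MYC high cells, with 1011 ± 49.7 per kb at 10 µM and 1437 ± 40.8 at 200 µM, but was the fifth in MYC low cells, with 407 ± 2.71 at 10 µM and 363 ± 13.4 at 200 µM. On average, Aco1 and Ncoa4 stood above it there, but in MYC low 200 µM cells Aco1 (392 ± 21.3) and Tfrc overlapped within their SD.

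At the low end, Slc11a2 had 107 to 123 normalized counts per kb in the group means and was the lowest of the 9 in every group except MYC high 200 µM cells, where Slc40a1 was lower at 55.6 ± 4.25 (SD, n = 2). Some neighbours in the order did not differ beyond their spread. Ncoa4 and Aco1 had 393 ± 13.3 and 392 ± 21.3 per kb in MYC low 200 µM cells, and Ireb2 and Slc40a1 had 314 ± 3.0 and 312 ± 4.67 per kb in MYC low 10 µM cells (SD, n = 3 each). These levels rest on the annotated length of 1 transcript per gene, and the transcript each library used was not measured.

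**Figure D2:**
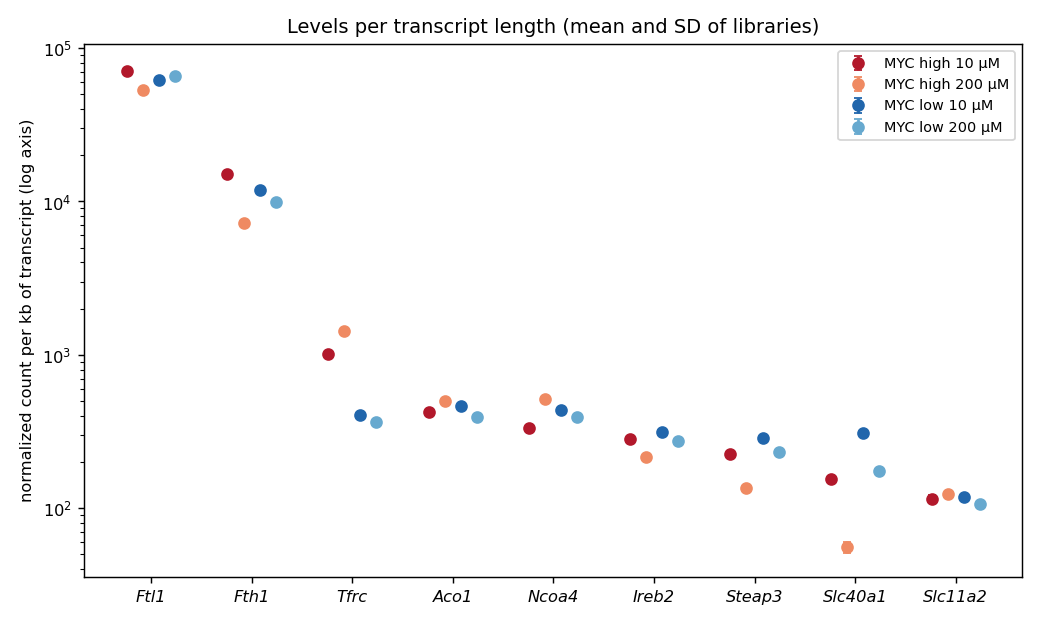
Mean level of each gene in normalized counts per kb of its longest coding transcript (log axis) with the SD of libraries, by group (2 libraries in MYC high 200 µM cells and 3 in each other group). Ftl1 and Fth1 stand highest in all 4 groups, Tfrc is next in both MYC high groups, and Slc40a1 has the widest range between groups on this axis.

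In all 4 comparisons of groups the 9 genes moved in both directions. In MYC low cells, 8 of the 9 were higher at 10 µM methionine and Ftl1 was lower. At 200 µM, all 9 passed the test between MYC high and MYC low cells, 4 higher and 5 lower. Of all genes tested, 74.4% passed there, 36.8% as higher and 37.6% as lower. At 10 µM, 3 were higher and 5 lower in MYC high cells and Slc11a2 did not pass. Of all genes, 71.5% passed there, 35.7% as higher and 35.8% as lower. In MYC high cells, 10 µM against 200 µM methionine gave 5 higher and 3 lower, with Slc11a2 again not passing. Of all genes, 75.8% passed there, 37.9% as higher and 37.9% as lower. In MYC low cells, 8 were higher and 1 lower at 10 µM. Of all genes, 59.4% passed there, 29.4% as higher and 29.9% as lower. The call of Slc11a2 in MYC low cells was lost in 8 of 21 alternative settings of the processing. Its call between the MYC states at 200 µM was lost in 2 of 21. The methionine response itself differed between MYC high and MYC low cells for all 9 genes, or for 8 in the alternatives in which Slc11a2 lost its call, with 5 positive and 4 negative values of the interaction, the response in MYC high cells less that in MYC low cells. Of all genes, 60.4% passed that test, 31.0% with a positive and 29.4% with a negative value.

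The counts are to be read against those shares, and whether they differ from them was not tested. The median size of the log2 difference between MYC high and MYC low cells was 0.39 for the 9 genes and 0.49 for all genes tested at 200 µM, and 0.35 and 0.39 at 10 µM. For 10 minus 200 µM methionine it was 0.51 for the 9 genes and 0.51 for all genes in MYC high cells, and 0.18 and 0.27 in MYC low cells. The interaction had a median size of 0.50 for the 9 genes and 0.39 for all genes. All log2 values here are on the scale of log2(normalized count + 1), and the comparisons share libraries, so they are not independent of each other.

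**Figure D3:**
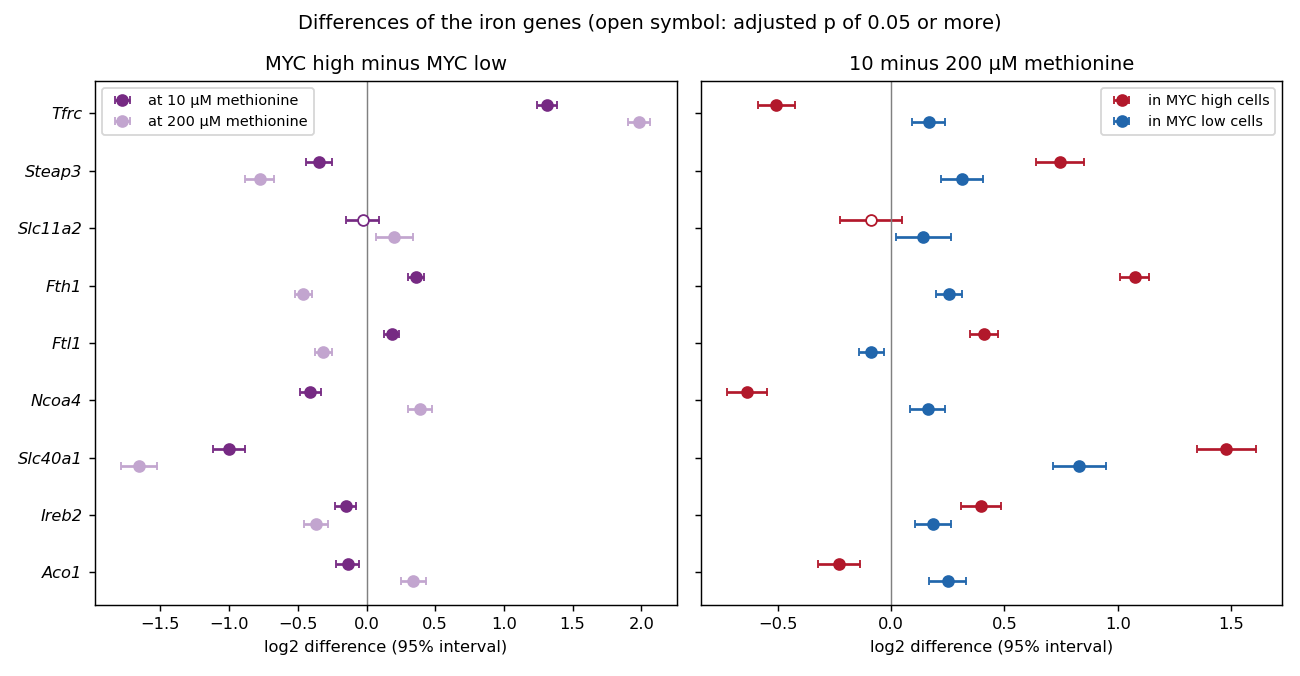
log2 differences of the 9 iron genes with 95% intervals from limma; the left panel sets MYC high against MYC low cells in each medium, the right panel gives 10 minus 200 µM in MYC high and MYC low cells, and open symbols mark an adjusted p of 0.05 or more. Fth1, Ftl1, Ncoa4 and Aco1 lie on opposite sides of 0 at the 2 methionine concentrations in the left panel, and Tfrc and Slc40a1 have the largest differences between the MYC states.

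Of the uptake genes, Tfrc was higher in MYC high cells in both media, and its methionine response had opposite signs in the MYC states. Its libraries read 5226, 4820 and 4791 normalized counts in MYC high 10 µM cells and 6885 and 7167 in MYC high 200 µM cells. MYC low cells had 1980, 2006 and 1989 at 10 µM and 1706, 1781 and 1837 at 200 µM. Every MYC high library stood above every MYC low library, and no pair of groups overlapped. The difference between MYC high and MYC low cells was 3.96-fold at 200 µM (log2 1.99, SE 0.040, limma adjusted p = 5.63e-32) and 2.48-fold at 10 µM (log2 1.31, SE 0.036, adjusted p = 3.34e-28).

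At 10 µM, Tfrc fell by 0.51 on the log2 scale in MYC high cells relative to 200 µM (SE 0.040, limma adjusted p = 4.26e-14). In MYC low cells it rose by 0.17 (SE 0.036, adjusted p = 0.000124), a difference of 1.12-fold. The interaction was −0.67 (SE 0.054, adjusted p = 2.00e-13). Among the 9 genes, Tfrc thus had the largest difference between the MYC states in either medium, while its methionine response in MYC low cells was among the smaller ones.

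The promoter windows of these genes were searched because MYC is known to bind E boxes. The set of RefSeq promoter windows used here (build GRCm38.p6) spans 250 bases before to 50 bases after a transcript start. It held 14 windows for 7 of the 9 genes, and none for Slc11a2 and Slc40a1, so those genes were not searched. Searched on both strands, the E box CACGTG was in 0 of the 14 windows and in 7.15% of all 32851 windows of the set. The hypoxia response element core ACGTG, which also lies inside an E box, was in 4 of the 14, against 19.6% of all windows, namely in 2 overlapping windows of Tfrc and 2 of Ncoa4. The 2 Tfrc windows share the same match, so 1 site was counted in both windows. The antioxidant response element core TGACNNNGC was in 1, of Ncoa4, against 12.4% of all windows. The stretch of the Tfrc promoter around the ACGTG, on the plus strand at chr16:32608882-32608910, is shown with that core in capitals.
Tfrc promoter stretch: ctcggtaggtgtACGTGcggaaggaagtg

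A match is a description of letters and not evidence that a factor bound there. No match says only that these letters are not in these windows.

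Steap3, whose product reduces iron in endosomes, ran against Tfrc between the MYC states and in its methionine response in MYC high cells. It read 1097, 1203 and 1197 normalized counts in MYC high 10 µM cells and 679 and 711 in MYC high 200 µM cells. In MYC low cells the values were 1515, 1460 and 1467 at 10 µM and 1238, 1133 and 1207 at 200 µM. The MYC high libraries at 200 µM were the lowest and the MYC low libraries at 10 µM the highest, and groups did not overlap within any comparison. In MYC high relative to MYC low cells, Steap3 fell by 0.78 on the log2 scale at 200 µM (SE 0.051, limma adjusted p = 2.54e-16) and fell by 0.35 at 10 µM (SE 0.046, adjusted p = 1.95e-08). At 10 µM methionine it rose 1.68-fold in MYC high cells (log2 0.74, SE 0.051, adjusted p = 8.19e-16) and 1.24-fold in MYC low cells (log2 0.31, SE 0.046, adjusted p = 2.52e-07).

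Slc11a2, which encodes the carrier that moves iron out of endosomes, varied least. Its values were 512, 483 and 537 normalized counts in MYC high 10 µM cells and 526 and 561 in MYC high 200 µM cells. Libraries of MYC low cells gave 510, 518 and 534 at 10 µM and 450, 473 and 493 at 200 µM. The MYC low libraries at 200 µM were the lowest on average, with their top value above the lowest MYC high 10 µM library, and the other 3 groups overlapped. The log2 difference between MYC high and MYC low cells was −0.03 at 10 µM (95% interval −0.15 to 0.09, limma adjusted p = 0.686), and that of 10 minus 200 µM in MYC high cells was −0.09 (−0.23 to 0.05, adjusted p = 0.224). Intervals of this width allow a difference in either direction.

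In MYC high relative to MYC low 200 µM cells, Slc11a2 rose by 0.20 on the log2 scale (SE 0.067, limma adjusted p = 0.00694). The 10 minus 200 µM difference in MYC low cells was 0.14 (SE 0.060, adjusted p = 0.0411). Both calls and that of the interaction (−0.23, SE 0.090, adjusted p = 0.0259) were lost when single libraries were left out. Without replicate 3 of MYC high 200 µM cells the first was 0.16 and no longer passed, and the interaction was −0.18 (adjusted p = 0.129). Without replicate 1 of MYC low 200 µM cells the methionine difference was 0.11 (adjusted p = 0.169). Of the exon bases of Slc11a2, 402 of 6354 overlap the antisense gene Gm5475, which held 19 to 33 reads in a library.

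**Figure D4:**
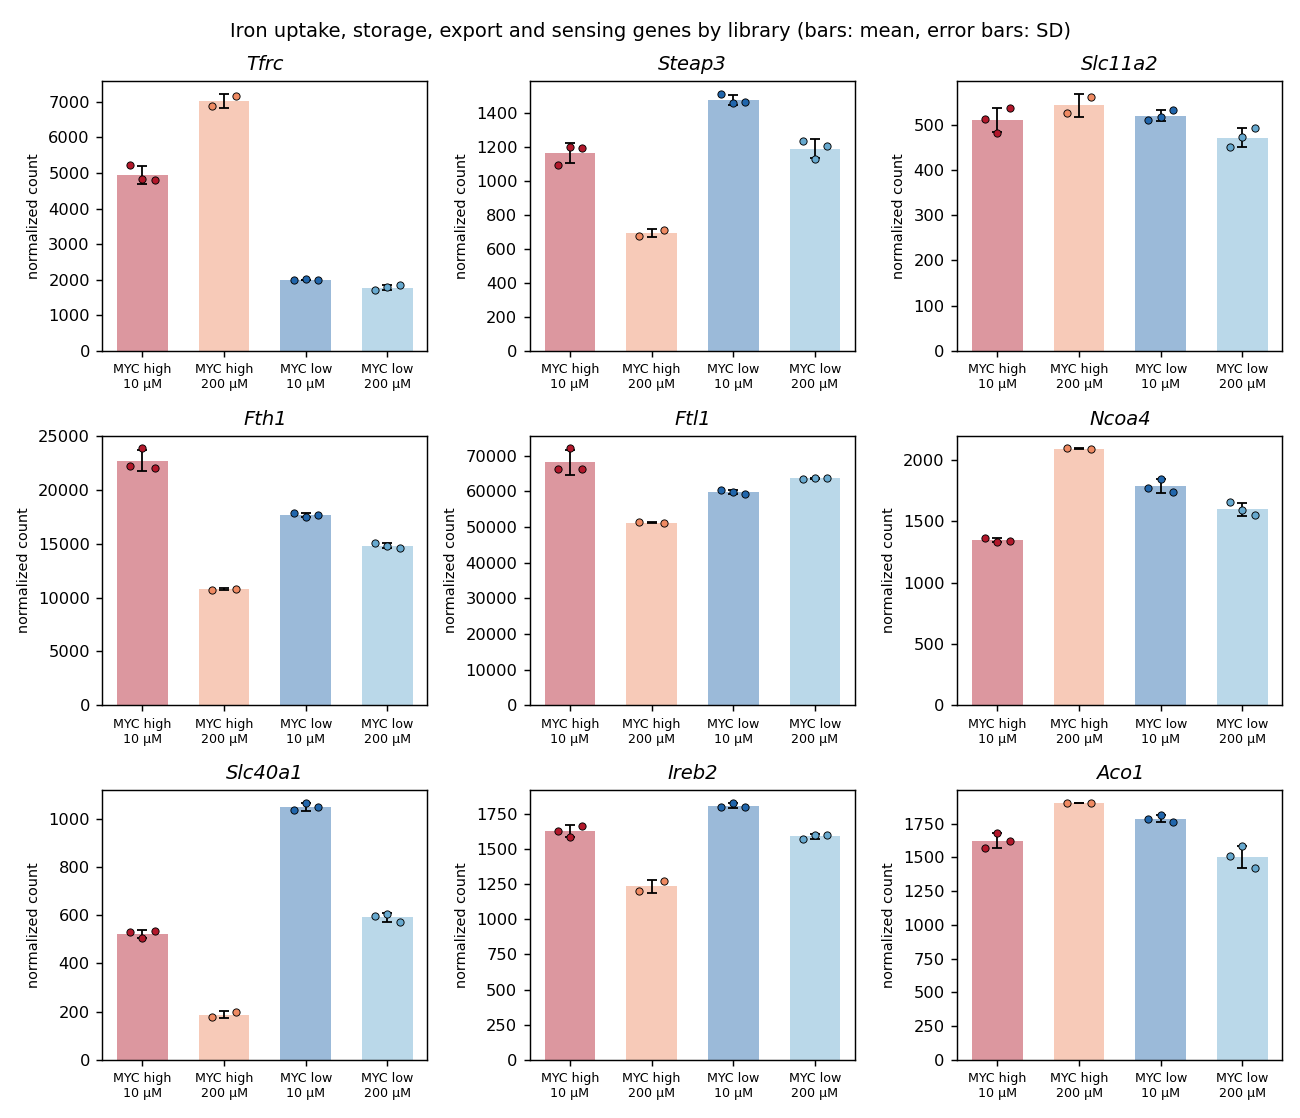
Normalized counts of the 9 genes in each library; x positions are MYC high at 10 and 200 µM and MYC low at 10 and 200 µM methionine, points are libraries, bars group means and error bars SD, and each panel starts at 0 with its own scale. Tfrc stands between 4791 and 7167 in MYC high and between 1706 and 2006 in MYC low libraries, whereas the MYC high libraries at 200 µM are the lowest for Steap3, Fth1, Ftl1, Slc40a1 and Ireb2 and the highest for Ncoa4 and Aco1.

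In the storage group, both ferritin genes were lower in MYC high 200 µM cells and higher in MYC high 10 µM cells. Fth1, the heavy chain that oxidises iron for storage, read 22251, 23864 and 22058 normalized counts in MYC high 10 µM cells and 10728 and 10835 in MYC high 200 µM cells. Against these, MYC low cells had 17858, 17521 and 17708 at 10 µM and 15035, 14823 and 14607 at 200 µM. The MYC high groups thus held both the highest and the lowest libraries, with the MYC low groups between them and no overlap.

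At 10 µM, Fth1 rose 2.11-fold in MYC high cells (log2 1.07, SE 0.031, limma adjusted p = 2.90e-27) and 1.19-fold in MYC low cells (log2 0.26, SE 0.028, adjusted p = 4.99e-10). Its interaction was 0.82 (SE 0.042, adjusted p = 7.51e-19). Between MYC high and MYC low cells, Fth1 fell by 0.46 on the log2 scale at 200 µM (SE 0.031, adjusted p = 7.43e-16) and rose by 0.36 at 10 µM (SE 0.028, adjusted p = 3.42e-14).

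Ftl1, the light chain, moved less. It had 66156, 72080 and 66158 normalized counts in MYC high 10 µM cells and 51378 and 51135 in MYC high 200 µM cells. The MYC low libraries had 60516, 59950 and 59362 at 10 µM and 63544, 63760 and 63813 at 200 µM. Among MYC high libraries the 10 µM ones were higher, and among MYC low libraries they were lower, without overlap. On the log2 scale, 10 minus 200 µM was 0.41 in MYC high cells (SE 0.031, limma adjusted p = 9.88e-15) and −0.09 in MYC low cells (SE 0.027, adjusted p = 0.00596). Ftl1 was the single gene of the 9 that fell there. MYC high minus MYC low was −0.31 at 200 µM (SE 0.031, adjusted p = 1.45e-11) and 0.18 at 10 µM (SE 0.027, adjusted p = 2.35e-07).

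Because heavy and light chains make up 1 shell, their ratio was also computed within each library. Normalized counts of Fth1 divided by those of Ftl1 gave 0.334 ± 0.00264 in MYC high 10 µM cells (SD, n = 3) and 0.210 ± 0.00218 in MYC high 200 µM cells (n = 2). It was 0.295 ± 0.00303 in MYC low 10 µM cells and 0.233 ± 0.00385 in MYC low 200 µM cells (n = 3 each). The ratio was higher at 10 µM in both MYC states and the ranges of the 4 groups did not overlap. It is a ratio of counts without correction for length, and so compares groups, not chains.

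The count of Ftl1 carries an uncertainty of annotation. A gene model on the opposite strand, Gm10252, overlaps 355 of its 1340 exon bases and held 34160 to 53243 reads in a library. Its normalized count divided by that of Ftl1 averaged 0.751 in MYC high 10 µM cells, 0.765 in MYC high 200 µM cells, 0.764 in MYC low 10 µM cells and 0.760 in MYC low 200 µM cells. Since the strand setting is not given in the sources used here, how reads on the shared bases were assigned or dropped is not known. The level of Ftl1 and the ratio of Fth1 to Ftl1 carry that uncertainty. Of 14 ferritin copies and related genes listed, 5 held any read, the most being Ftl1-ps1 with 150 to 213 normalized counts and the others (Ftl2-ps, Ftl1-ps2, Fth-ps2 and Fthl17f) at most 9.17.

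Ncoa4, the receptor that delivers ferritin to lysosomes, moved opposite to the ferritin genes in MYC high cells. It read 1365, 1334 and 1340 normalized counts in MYC high 10 µM cells and 2095 and 2092 in MYC high 200 µM cells. The MYC low libraries had 1774, 1849 and 1737 at 10 µM and 1656, 1591 and 1549 at 200 µM. The MYC high groups were again the extremes, here with the 200 µM libraries on top, and no groups overlapped within a comparison. At 10 µM, Ncoa4 fell by 0.64 on the log2 scale in MYC high cells (SE 0.043, limma adjusted p = 5.58e-16) and rose by 0.16 in MYC low cells (SE 0.039, adjusted p = 0.000485), an interaction of −0.80 (SE 0.058, adjusted p = 1.61e-14). MYC high minus MYC low was 0.39 at 200 µM (SE 0.043, adjusted p = 3.15e-10) and −0.41 at 10 µM (SE 0.039, adjusted p = 6.86e-12).

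Slc40a1, the exporter, had the widest relative range of the 9 genes and was lower in MYC high cells and higher at 10 µM throughout. It read 530, 504 and 536 normalized counts in MYC high 10 µM cells and 177 and 197 in MYC high 200 µM cells. The MYC low libraries had 1035, 1066 and 1049 at 10 µM and 595, 606 and 571 at 200 µM. MYC high libraries at 200 µM were the lowest and MYC low libraries at 10 µM the highest, with no overlap between any groups. Relative to MYC low cells, Slc40a1 in MYC high cells fell by 1.65 on the log2 scale at 200 µM (SE 0.065, limma adjusted p = 3.73e-23) and was 2.01-fold lower at 10 µM (log2 SE 0.058, adjusted p = 4.94e-18).

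The 10 µM medium went with 2.79-fold more Slc40a1 RNA in MYC high cells (log2 1.48, SE 0.065, limma adjusted p = 9.06e-22) and 1.78-fold more in MYC low cells (log2 0.83, SE 0.058, adjusted p = 3.54e-15), and the interaction was 0.65 (SE 0.087, adjusted p = 4.18e-08). Macrophages are known for high ferroportin expression, and the summed level of 5 macrophage markers was, like Slc40a1, lower in MYC high cells and higher at 10 µM. That sum ranged from 873 to 906 normalized counts in MYC high 10 µM cells, from 263 to 286 in MYC high 200 µM cells, from 931 to 974 in MYC low 10 µM cells and from 482 to 533 in MYC low 200 µM cells. Nearly all of it came from Csf1r and Cd68. Csf1r was, like Slc40a1, lower in MYC high cells in both media and higher at 10 µM in both MYC states. It had 425 to 444 normalized counts in MYC high 10 µM and 238 to 255 in MYC high 200 µM libraries. In MYC low libraries it had 730 to 756 at 10 µM and 394 to 437 at 200 µM. Cd68 went against Slc40a1 at 10 µM, with 448 to 461 normalized counts in MYC high and 197 to 217 in MYC low libraries, and at 200 µM it had 25.5 to 30.9 in MYC high and 83.9 to 94.8 in MYC low libraries. The defining markers Ptprc, Adgre1 and Lyz2 had 0, 1 and 6 reads in all libraries together.

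Uptake and export genes were set against each other within libraries. Normalized counts of Tfrc divided by those of Slc40a1 gave 9.46 ± 0.468 in MYC high 10 µM cells (SD, n = 3), 37.6 ± 1.81 in MYC high 200 µM cells (n = 2), 1.90 ± 0.0159 in MYC low 10 µM cells (n = 3) and 3.01 ± 0.184 in MYC low 200 µM cells (n = 3). The ratio was higher in MYC high cells in both media and lower at 10 µM in both MYC states, with no overlap between groups. RNA levels do not give the amount of either protein, nor the iron content of the cells.

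The iron regulatory protein genes changed by modest amounts. Ireb2, which encodes iron regulatory protein 2, read 1632, 1586 and 1667 normalized counts in MYC high 10 µM cells and 1203 and 1270 in MYC high 200 µM cells. The MYC low libraries had 1802, 1830 and 1799 at 10 µM and 1572, 1602 and 1604 at 200 µM. The MYC high libraries at 200 µM stood below all others, and those at 10 µM overlapped in range with MYC low 200 µM cells, which form no comparison with them. MYC high minus MYC low was −0.37 on the log2 scale at 200 µM (SE 0.043, limma adjusted p = 1.22e-09) and −0.15 at 10 µM (SE 0.038, adjusted p = 0.000563). Ireb2 rose at 10 µM by 0.40 in MYC high cells (SE 0.043, adjusted p = 1.53e-10) and by 0.18 in MYC low cells (SE 0.038, adjusted p = 7.60e-05).

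Aco1 encodes a cytosolic aconitase that becomes iron regulatory protein 1 when it lacks its iron-sulphur cluster. Its libraries read 1572, 1678 and 1621 normalized counts in MYC high 10 µM cells and 1904 and 1902 in MYC high 200 µM cells. The MYC low libraries had 1785, 1811 and 1758 at 10 µM and 1512, 1580 and 1418 at 200 µM. The highest and the lowest group were both at 200 µM, MYC high above and MYC low beneath, and the groups of each comparison did not overlap. MYC high minus MYC low was 0.34 on the log2 scale at 200 µM (SE 0.045, limma adjusted p = 1.78e-08) and −0.14 at 10 µM (SE 0.040, adjusted p = 0.00287). At 10 µM, Aco1 fell by 0.23 in MYC high cells (SE 0.045, adjusted p = 2.30e-05) and rose by 0.25 in MYC low cells (SE 0.040, adjusted p = 1.69e-06).

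The same 4 groups were read for other genes of iron and haem metabolism, from a list of 72 found by name, of which 53 passed the filter on low values. Between MYC high and MYC low cells, 17 were higher, 24 lower and 12 did not pass at 200 µM, and 31 were higher, 11 lower and 11 did not pass at 10 µM. Of all genes tested, 36.8% were higher and 37.6% lower at 200 µM, and 35.7% were higher and 35.8% lower at 10 µM. For 10 against 200 µM methionine, 25 were higher, 14 lower and 14 did not pass in MYC high cells, and 18 were higher, 14 lower and 21 did not pass in MYC low cells. Of all genes tested, 37.9% were higher and 37.9% lower in MYC high cells, and 29.4% were higher and 29.9% lower in MYC low cells. The median log2 difference of the 53 genes was −0.03 and 0.22 between the MYC states at 200 and 10 µM, and 0.12 and 0.04 between the media in MYC high and MYC low cells; the median of all genes tested lay within 0.004 of 0 in each.

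Of 7 genes of uptake and release, 0 were higher and 5 lower in MYC high 200 µM cells, and 1 was higher and 3 lower at 10 µM (all genes tested: 36.8% and 37.6%, 35.7% and 35.8%). For 10 against 200 µM methionine, 4 were higher and 2 lower in MYC high cells, and 1 was higher and 3 lower in MYC low cells (all genes: 37.9% and 37.9%, 29.4% and 29.9%). In uptake and release, Cp, which encodes the ferroxidase ceruloplasmin that works with ferroportin, had the smallest adjusted p of the list in both comparisons of the MYC states. It averaged 617 ± 35.9 normalized counts in MYC high 10 µM cells (SD, n = 3) and 139 ± 0.291 in MYC high 200 µM cells (n = 2), against 4753 ± 163 in MYC low 10 µM cells and 2408 ± 87.4 in MYC low 200 µM cells (n = 3 each). Like Slc40a1, it was lower in MYC high 200 µM cells (log2 −4.10, SE 0.051, limma adjusted p = 1.81e-38) and at 10 µM (log2 −2.94, SE 0.045, adjusted p = 4.72e-36). At 10 µM methionine it rose by 2.14 on the log2 scale in MYC high cells (SE 0.051, adjusted p = 4.03e-30) and by 0.98 in MYC low cells (SE 0.045, adjusted p = 2.26e-20).

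Lrp1, a receptor that takes up haem bound to haemopexin among many ligands, averaged 597 ± 39.4 normalized counts in MYC high 10 µM cells and 103 ± 20.9 in MYC high 200 µM cells, against 242 ± 32.2 in MYC low 10 µM cells and 220 ± 45.3 in MYC low 200 µM cells. Its 10 minus 200 µM difference was 2.54 on the log2 scale in MYC high cells (SE 0.123, limma adjusted p = 2.40e-20) and 0.15 in MYC low cells (SE 0.110, adjusted p = 0.235), and the interaction was 2.39 (adjusted p = 4.37e-15). Steap1, a relative of Steap3, instead fell at 10 µM in both MYC states, by 0.70 in MYC high (SE 0.050) and by 0.71 in MYC low cells (SE 0.045, limma adjusted p at most 1.99e-15). Hfe, which binds the transferrin receptor, was under the filter and had 21.3 ± 3.74 normalized counts in MYC high 10 µM cells, 6.16 ± 4.21 in MYC high 200 µM cells, 2.76 ± 1.63 in MYC low 10 µM cells and 0.323 ± 0.559 in MYC low 200 µM cells. Hamp, the gene of the liver hormone hepcidin, and Epas1 averaged at most 1.06 and 0.650 normalized counts in any group, which is under the limit that a count of 0 allows.

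Of 10 genes of storage, chaperoning and sensing, 5 were higher and 3 lower in MYC high 200 µM cells, and 7 were higher and 1 lower at 10 µM (all genes tested: 36.8% higher and 37.6% lower at 200 µM, 35.7% and 35.8% at 10 µM). For 10 against 200 µM methionine, 3 were higher and 3 lower in MYC high cells, and 1 was higher and 5 lower in MYC low cells. Of all genes, 37.9% were higher and 37.9% lower in MYC high cells, and 29.4% and 29.9% in MYC low cells. Fbxl5, which marks iron regulatory protein 2 for degradation when iron is plentiful, behaved like Fth1 in sign: it averaged 1994 ± 89.5 normalized counts in MYC high 10 µM cells (SD, n = 3) and 1032 ± 1.94 in MYC high 200 µM cells (n = 2), against 1827 ± 54.6 in MYC low 10 µM cells and 1522 ± 25.7 in MYC low 200 µM cells (n = 3 each). The interaction of Fbxl5 was 0.68 (SE 0.060, limma adjusted p = 2.06e-12). Pcbp2, an RNA-binding protein that also hands iron to other proteins, was higher in MYC high 10 µM cells (log2 0.70, adjusted p = 6.14e-22) and at 200 µM (log2 0.60, adjusted p = 3.43e-18).

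Mitochondrial iron and iron-sulphur cluster genes, 21 tested, had 10 higher and 6 lower in MYC high 200 µM cells and 16 higher and 3 lower at 10 µM. The shares over all genes were 36.8% higher and 37.6% lower at 200 µM, and 35.7% and 35.8% at 10 µM. For 10 against 200 µM methionine, 8 were higher and 6 lower in MYC high cells, and 8 were higher and 4 lower in MYC low cells. Of all genes, 37.9% were higher and 37.9% lower in MYC high cells, and 29.4% and 29.9% in MYC low cells. Ciapin1, of the cytosolic cluster assembly machinery, stood 2.57-fold higher in MYC high 200 µM cells (log2 1.36, SE 0.058, limma adjusted p = 5.68e-22) and 1.21-fold higher at 10 µM (log2 0.27, SE 0.052, adjusted p = 1.88e-05). The mitochondrial cluster carrier gene Glrx5 was higher by 1.08 at 200 µM and by 1.01 at 10 µM on the log2 scale (SE 0.049 and 0.044). Slc25a37, the mitochondrial iron importer mitoferrin 1, was higher by 1.08 (SE 0.122, adjusted p = 5.75e-10) at 200 µM and by 1.27 (SE 0.110, adjusted p = 6.07e-13) at 10 µM.

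Of 15 haem genes tested, 10 were higher and 3 lower at 10 µM methionine in MYC high cells, and 8 were higher and 2 lower in MYC low cells. Over all genes the shares were 37.9% higher and 37.9% lower in MYC high cells, and 29.4% and 29.9% in MYC low cells. Fech, whose product inserts iron to form haem, rose 2.20-fold in MYC high cells (log2 1.14, SE 0.049, limma adjusted p = 7.50e-22) and 1.28-fold in MYC low cells (log2 0.36, SE 0.044, adjusted p = 8.13e-09). Cpox, an earlier enzyme of the pathway, fell instead, by 0.57 in MYC high cells and by 1.06 in MYC low cells on the log2 scale (adjusted p = 5.99e-13 and 1.30e-21). Between MYC high and MYC low cells, 2 haem genes were higher and 10 lower at 200 µM, and 7 were higher and 4 lower at 10 µM. Of all genes, 36.8% were higher and 37.6% lower at 200 µM, and 35.7% and 35.8% at 10 µM. In MYC high minus MYC low cells, the haem transporter gene Slc48a1 had log2 differences of −0.96 at 200 µM and −0.83 at 10 µM (limma adjusted p = 3.84e-22 and 1.07e-21). Flvcr1, described as a haem exporter, had 1.25 and 0.34 (adjusted p = 5.63e-20 and 1.50e-06). Hmox1, which frees iron from haem, was 0.19 higher at 10 µM in MYC high cells (SE 0.054, adjusted p = 0.00152), and its difference of 0.02 in MYC low cells did not pass (adjusted p = 0.772).

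**Figure D5:**
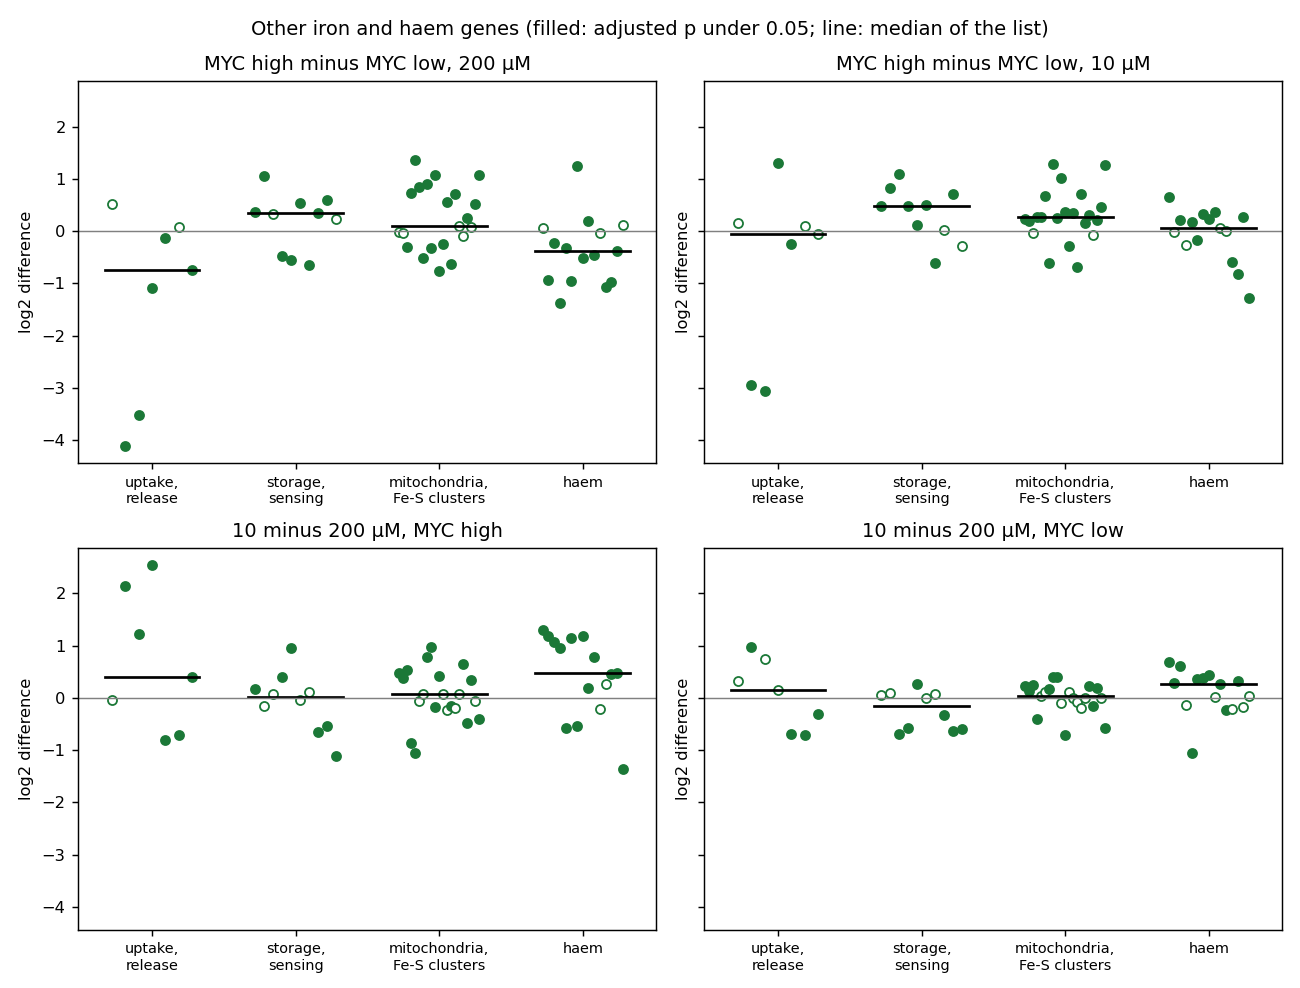
log2 differences of the 53 tested genes of the wider iron and haem list, by role and comparison; points are genes, filled where the limma adjusted p is under 0.05, and lines mark medians. Haem genes have a median of 0.47 for 10 minus 200 µM in MYC high cells and −0.38 at 200 µM for the MYC states (high minus low). In the upper panels the lowest point at 200 µM is Cp (−4.10). At 10 µM it is another gene (−3.05), beneath Cp (−2.94).

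Genes whose 4 group means ran most like those of Tfrc, Fth1 and Slc40a1 were sought among 9723 genes with a mean of at least 100 normalized counts, by the root mean square difference of log2 values centred on each gene's mean over the groups. For Tfrc these were Srm (0.064), which encodes spermidine synthase, Gm43599 (0.099) and Dyrk3 (0.109). Srm averaged 1661 and 2105 normalized counts in MYC high cells at 10 and 200 µM and 609 and 567 in MYC low cells at 10 and 200 µM. For Fth1 they were Lrfn3 (0.017), Mpg (0.028) and Dcaf4 (0.036), and for Slc40a1 they were Ttyh3 (0.058), Dysf (0.074) and Fmn1 (0.112). With 4 means per gene and so many genes, close matches are common, and the likeness is a description only.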

How the data were processed

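Polyadenylated RNA of 11 EC4 libraries was analysed. The deposited values are signal values per gene and library that the authors labelled normalized counts. STAR, HTSeq, SAMtools, DESeq2, fastp, FastQC and build GRCm39 were used per the submitters' processing notes. For versions, annotation release and strand setting, the entry is "not given in the sources used here". The values were whole multiples of 1 step per library, 100% coming out as whole reads within 0.001.

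Genes with a mean of at least 10 were compared on log2(value + 1), which understates changes of low genes, by limma 3.58.1 (R 4.3.3), using a mean for each group, a mean-variance trend and Benjamini-Hochberg adjustment over all 12909 genes per comparison at 0.05. SE is limma's moderated standard error. On the recovered reads, edgeR 4.0.16 called 9583 genes between the MYC states at 200 µM and limma 9600, and DESeq2 1.42.0 called 8996. Other alternatives were the scaling, the pseudocount, the filter, a replicate block and leaving out each library.

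Symbols, transcripts and lengths came from GENCODE M21 (GRCm38; 52083 of 55416 identifiers had a symbol), so gene coordinates are not printed in the files' build; promoter windows are RefSeq's on GRCm38.p6. The 9 genes, the wider lists and the tests were chosen with earlier results of these data known. Of the wider list, the 4 genes with the smallest adjusted p in each comparison and 7 genes fixed by name may be named; ferritin copies are named where they hold reads, and antisense genes where they overlap. Replicate libraries differed by more than sampling noise (chi-square per degree of freedom 1.31 to 2.17).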

Additional observations from a re-analysis of the deposited data

Results flagged for a closer look

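The response to 10 against 200 µM methionine differed between MYC high and MYC low cells for each of the 9 iron genes by limma's interaction term, the log2 response in MYC high cells less that in MYC low cells. It was positive for Fth1 (0.82, adjusted p = 7.51e-19), Slc40a1 (0.65, adjusted p = 4.18e-08), Ftl1 (0.50, adjusted p = 5.45e-13), Steap3 (0.43, adjusted p = 1.21e-06) and Ireb2 (0.21, adjusted p = 0.00174). It was negative for Ncoa4 (−0.80, adjusted p = 1.61e-14), Tfrc (−0.67, adjusted p = 2.00e-13), Aco1 (−0.48, adjusted p = 1.48e-08) and Slc11a2 (−0.23, adjusted p = 0.0259), whose call was lost in 6 of 20 alternatives. For Tfrc, Ftl1, Ncoa4 and Aco1 the responses passed in both MYC states with opposite signs, while Fth1, Steap3, Slc40a1 and Ireb2 rose in both, more so in MYC high cells. Of all genes tested, 60.4% passed the same interaction test.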

How the results depend on the processing

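For the 9 genes in 5 comparisons, 936 alternative values of 45 results were computed over 21 settings, and 919 kept their direction and their side of the threshold. The 17 others all concerned Slc11a2. Its difference between the MYC states at 200 µM ranged from 0.12 to 0.25 and did not pass when values were scaled to the library total (0.12, adjusted p = 0.117). Its 10 µM difference, which did not pass, ranged from −0.065 to 0.011 when single libraries were left out, the value of 0.011 being that without replicate 2 of MYC high 10 µM cells. Its methionine difference in MYC low cells was lost in 8 of 21 alternatives (0.11 to 0.17 over all; largest adjusted p = 0.169) and its interaction in 6 of 20 (−0.28 to −0.18; largest adjusted p = 0.129). The cause was not tested. Tfrc between the MYC states at 200 µM ranged from 1.90 to 2.01. Scaling moved the median of all genes to −0.09 at most.

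The labels do not say whether same-numbered libraries share a culture or preparation. Their deviations from the group means had correlations from −0.049 to 0.026, which cannot settle it with so few libraries per group. With a replicate block, 9495 genes passed between the MYC states at 200 µM and 7663 in the interaction, against 9600 and 7798 without it, and it changed no call of the 9 genes. Depth limits genes near 0 reads, where 3 reads equal 2.65 to 3.43 normalized counts.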
